A study of Danio rerio with 12 samples.

Results

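The growth hormone, insulin-like growth factor (IGF) and SOCS genes were followed in zebrafish liver as a list of 10 gene symbols, all of which were found among the 14581 genes of the deposited expression table: cish, socs2, socs3a, socs3b, ghra, ghrb, igf1, igf2a, igfbp1a and igfbp2a. The list was put together with it already known that cish was higher after estradiol in both sexes, so the cish result is not independent evidence of that direction. The livers came from adult wild-type Danio rerio given either β-Estradiol, the main ovarian estrogen, or DMSO, its solvent, every day for 6 weeks, starting at 3 months of age, in individual tanks. There were 4 groups of 3 libraries each: female estradiol, female DMSO, male estradiol and male DMSO. Whether each library came from a fish of its own is not stated in the labels, and the p-values cover no more than the variation among these libraries. The estradiol libraries carry the numbers 19 to 24 and the DMSO libraries 7 to 12, so treatment and library series cannot be told apart. The title of the study names the estrogen receptor GPER1 and sex differences in liver growth, and the comparisons here ask what estradiol did to the growth hormone and IGF axis of the liver in each sex.

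Growth hormone from the pituitary binds a receptor on hepatocytes (ghra and ghrb in zebrafish), which signals through the kinase JAK2 and the transcription factor STAT5. In mammals STAT5 switches on IGF1, the liver-made hormone of body growth, together with CISH and SOCS2, whose proteins act back on the receptor and dampen it, while SOCS3 is best known as a brake on signalling by the interleukin-6 family through STAT3. Insulin-like growth factor binding proteins made by the liver carry IGF in blood and limit its access to its receptor. IGFBP1 is known in fish and mammals for rising in fasting and stress.

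Values are FPKM, which scale the fragments of a gene by its transcript length and the library size, so levels can be set against each other between genes. The main fit applied no further scaling between libraries. Summed over all genes, a library held 485549 to 1217095 FPKM in female estradiol and 304905 to 786203 FPKM in male estradiol. The DMSO libraries held 791666 to 906620 FPKM in females and 660052 to 731829 FPKM in males. Differences are on the log2(FPKM + 1) scale, which understates changes of genes near or below 1 FPKM. A gene "rose" or "fell" where limma's adjusted p, over all 9190 genes tested, was under 0.05.

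Libraries of a group were not equally alike. The Spearman correlation across genes between replicates was 0.790 to 0.905 in female estradiol and 0.775 to 0.929 in male estradiol, against 0.910 to 0.938 in female DMSO and 0.945 to 0.955 in male DMSO. Of 14 hepatocyte marker genes in the table, all had at least 1 FPKM in each estradiol library, 13 in each female DMSO library and 12 in each male DMSO library. The transferrin gene tfa was listed at exactly 0 in all DMSO libraries and apoa1b in male DMSO, and an exact 0 can be a failed estimate. In females the mean log2 level of the hepatocyte list was 9.24 to 10.2 under estradiol, against 9.65 to 10.1 under DMSO. In males it was 8.84 to 11.9 under estradiol, against 9.59 to 9.83 under DMSO. Genes listed at 0 are counted in these means, which lowers the DMSO means. The summed level of the list was 20000 to 38800 FPKM in female estradiol, against 56190 to 79760 FPKM in female DMSO. It was 18580, 118400 and 43920 FPKM in male estradiol replicates 1 to 3, against 94730 to 113200 FPKM in male DMSO. The hepatocyte gene fabp10a had 6559.8 to 15596 FPKM in the estradiol libraries, against 32210 to 82284 FPKM in the DMSO libraries. Of 14 oocyte genes, 12 had at least 1 FPKM in replicates 1 and 3 of both estradiol groups, 8 in male estradiol replicate 2, 0 in female estradiol replicate 2, 4 to 10 in female DMSO and 0 in male DMSO. The summed level of the 17 exocrine pancreas genes was 118 to 902 FPKM in female estradiol and 150 to 829 FPKM in male estradiol, against 3729 to 16760 FPKM in female DMSO and 8769 to 10820 FPKM in male DMSO. For 5 red blood cell genes the mean log2 level was 1.67 to 3.63 in female estradiol and 3.08 to 4.13 in male estradiol, against 4.09 to 5.46 in female DMSO and 5.05 to 6.31 in male DMSO. Their summed level overlapped, with 54.6 to 1214 FPKM in female estradiol and 188 to 458 FPKM in male estradiol, against 341 to 804 FPKM in female DMSO and 611 to 860 FPKM in male DMSO. The part of these other tissues in the results below was not tested, and in whole tissue fewer cells of a type cannot be told from less RNA per cell.

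**Figure D1:**
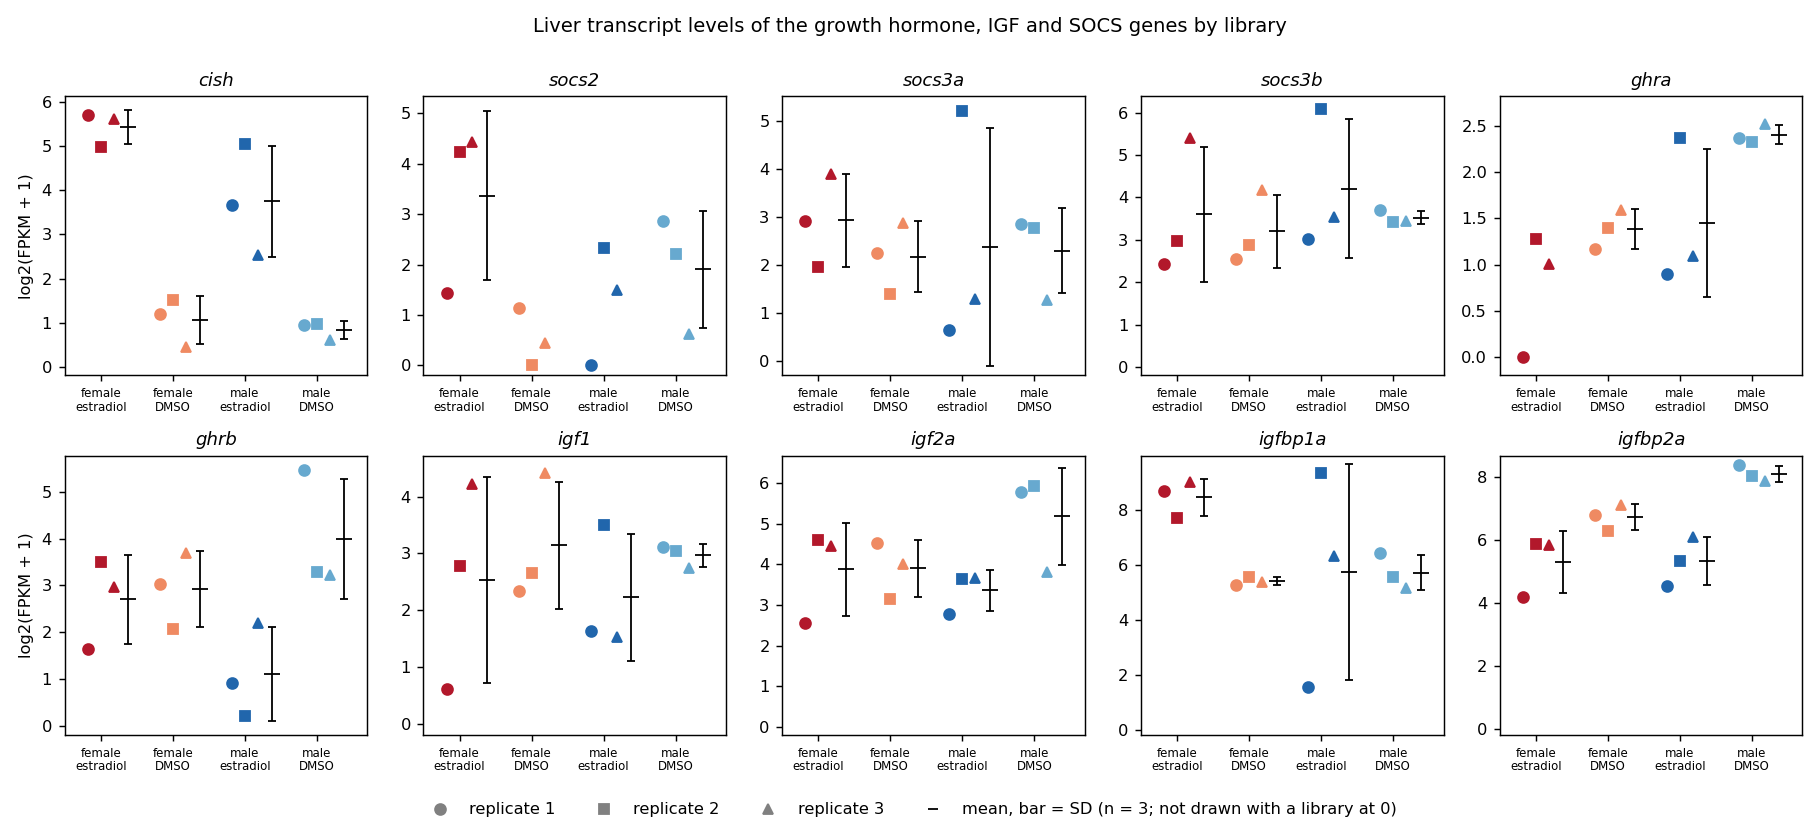
Level of each of the 10 genes as log2(FPKM + 1) in every library, with the groups female estradiol, female DMSO, male estradiol and male DMSO from left to right. Marker shapes give the replicate, and black ticks and bars give the mean and SD of 3 libraries, left out where a library is listed at 0. The estradiol points of cish lie above the DMSO points in both sexes, and those of igfbp2a lie below them.

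Under estradiol cish rose in both sexes. This gene encodes CIS, a feedback inhibitor of growth hormone, prolactin and other STAT5-linked cytokine receptors. In females it had 51.3, 30.9 and 48.6 FPKM in the estradiol livers, against 1.29, 1.87 and 0.366 FPKM in the DMSO livers. The male livers had 11.7, 32.1 and 4.78 FPKM under estradiol, against 0.915, 0.966 and 0.517 FPKM under DMSO. Every estradiol library stood above every DMSO library, and the lowest estradiol value, in male replicate 3, was above the highest DMSO value, in female replicate 2. The difference was 4.39 in females (SE 0.55, 95% confidence interval 3.19 to 5.59, limma adjusted p = 0.00360) and 2.91 in males (SE 0.55, interval 1.71 to 4.11, adjusted p = 0.0130). By p-value cish stood at place 9 of 9190 genes in females and at place 139 in males. These p-values and places come from the data in which the rise of cish was already known, so they are not independent support. In the estradiol group of females, cish was lowest, at 30.9 FPKM, in replicate 2, a library in which 0 of 14 oocyte genes reached 1 FPKM. Male estradiol did not share this order. There cish was highest, at 32.1 FPKM, in replicate 2, which held the least oocyte transcripts of its group, 45.6 FPKM. Replicates 1 and 3 of that group, at 11.7 and 4.78 FPKM of cish, held 3107 and 1477 FPKM of oocyte transcripts. The part of oocyte transcripts or of other tissues in the cish result was not tested. Only 2 of the 6 DMSO libraries reached 1 FPKM of cish, against all 6 estradiol libraries, so the gene entered the test mainly through the estradiol groups.

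The call in males ended when any DMSO male was left out: the adjusted p was 0.0645, 0.0534 and 0.0578 without male DMSO replicates 1, 2 and 3, at differences of 2.79 to 2.98. In females the call ended when both DMSO libraries rich in intestine transcripts, replicates 1 and 2, were left out together. The difference was then 4.995, with 1 female DMSO library left, replicate 3. The 7 intestine genes summed to 1223, 1335 and 93.0 FPKM in female DMSO replicates 1 to 3, against 0.761 to 3.76 FPKM in female estradiol. The estradiol effect on cish did not pass the test for a difference between the sexes, with an interaction of 1.48 (SE 0.78, interval -0.22 to 3.18, adjusted p = 0.535). Between estradiol livers the difference of cish, females minus males, was 1.70 (SE 0.55, adjusted p = 0.356), with overlapping libraries. Without the oocyte-rich estradiol libraries, replicates 1 and 3 of each sex, this difference was -0.05 and the interaction -0.27. In that fit cish was higher under estradiol than under DMSO by 3.94 in females and 4.21 in males, with 1 library left in each estradiol group.

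The other feedback inhibitor of the growth hormone receptor, socs2, did not pass the test in either sex. In females socs2 had 1.69, 17.7 and 20.5 FPKM under estradiol, against 1.19, 0 and 0.360 FPKM under DMSO. The male livers had 0, 4.02 and 1.83 FPKM under estradiol, against 6.32, 3.61 and 0.544 FPKM under DMSO. Every female estradiol library exceeded every female DMSO library, replicate 1 by a small margin, while the male groups overlapped. The difference was 2.84 in females (SE 0.85, interval 0.99 to 4.68, adjusted p = 0.0993) and -0.62 in males (SE 0.85, adjusted p = 0.666). In females socs2 passed in 1 of the 12 fits with 1 library left out, where the limma adjusted p ran from 0.0384 to 0.232. That fit was without female estradiol replicate 1, the lowest of its group for socs2, and the difference became 3.80. Among the 10 genes socs2 had the largest interaction, an effect 3.46 higher in females than in males, which did not pass (95% confidence interval 0.85 to 6.07, adjusted p = 0.339).

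The SOCS3 pair, inhibitors of cytokine receptors that signal through STAT3, varied mostly within groups. In females socs3a had 6.58, 2.91 and 13.98 FPKM under estradiol, against 3.77, 1.63 and 6.29 FPKM under DMSO. Among males it stood at 0.552, 36.2 and 1.43 FPKM under estradiol, against 6.19, 5.80 and 1.42 FPKM under DMSO. A single library, male estradiol replicate 2, held 94.8% of the summed socs3a level of its group. The paralog socs3b showed the same library at the top, with 7.04, 66.7 and 10.6 FPKM in male estradiol, against 12.1, 9.63 and 9.95 FPKM in male DMSO. In females socs3b had 4.39, 6.80 and 41.4 FPKM under estradiol, against 4.83, 6.39 and 17.1 FPKM under DMSO. The groups of both genes overlapped in both sexes. The socs3a difference was 0.76 in females (interval -1.43 to 2.95, adjusted p = 0.701) and 0.08 in males (interval -2.11 to 2.27, adjusted p = 0.966), and in males it was -1.34 without male estradiol replicate 2 (adjusted p = 0.154). The socs3b difference was 0.40 in females (interval -1.48 to 2.27, adjusted p = 0.824) and 0.68 in males (interval -1.19 to 2.56, adjusted p = 0.640).

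Of the growth hormone receptor genes, ghrb was low in estradiol males and close to the threshold. It had 0.873, 0.156 and 3.55 FPKM in male estradiol livers, against 43.2, 8.69 and 8.35 FPKM in male DMSO livers, with no overlap. Among females it stood at 2.12, 10.3 and 6.77 FPKM under estradiol, against 7.14, 3.19 and 11.9 FPKM under DMSO, with overlap. The difference was -2.89 in males (SE 0.74, interval -4.49 to -1.29, adjusted p = 0.0513) and -0.23 in females (SE 0.74, interval -1.83 to 1.37, adjusted p = 0.889). In males ghrb passed in 4 of the 12 fits with 1 library left out. Over the 12 the limma adjusted p ran from 0.0345 to 0.205, at differences of -3.43 to -2.15. The 4 were those without male estradiol replicate 2 (adjusted p = 0.0408) or 3 (0.0443), or female estradiol replicate 1 (0.0345) or 2 (0.0435). In these fits 24.5%, 2.85%, 7.3% and 4.86% of all genes passed, in that order, against 3.79% in the main fit. Among the settings that kept all 12 libraries, ghrb passed with quantile normalization (adjusted p = 0.0347), median-of-ratios scaling (0.0397) and a filter of 5 FPKM (0.0384). There 4.48%, 4.95% and 6.83% of all genes passed. The male ghrb difference did not pass with a pseudocount of 0.1, with no filter on low values or with a replicate term. Without the oocyte-rich estradiol libraries the male difference was -3.78, with 1 library left in each estradiol group. The effect in females minus that in males was 2.66 (SE 1.04, interval 0.40 to 4.93, adjusted p = 0.387).

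The second receptor gene, ghra, had a lower mean level than ghrb in every group but male estradiol. In females it had 0, 1.41 and 1.01 FPKM under estradiol, against 1.25, 1.63 and 2.02 FPKM under DMSO. In males it had 0.857, 4.15 and 1.13 FPKM under estradiol, against 4.17, 4.02 and 4.74 FPKM under DMSO. Male estradiol replicate 2 lay among the male DMSO libraries, and the other 2 lay below them. The difference was -0.63 in females (interval -1.57 to 0.32, adjusted p = 0.455) and -0.96 in males (interval -1.90 to -0.01, adjusted p = 0.183), and in males it passed without male estradiol replicate 2 (-1.41, adjusted p = 0.0226), a fit in which 24.5% of all genes passed. Without the oocyte-rich estradiol libraries the male difference was -0.04 (adjusted p = 0.957).

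The transcript of the main growth factor, igf1, did not differ detectably between estradiol and DMSO. The female livers had 0.518, 5.83 and 17.6 FPKM under estradiol, against 4.08, 5.32 and 20.4 FPKM under DMSO. The male livers had 2.11, 10.4 and 1.88 FPKM under estradiol, against 7.63, 7.27 and 5.67 FPKM under DMSO. Values within an estradiol group thus differed more than the group means did. The difference was -0.61 in females (SE 0.85, interval -2.46 to 1.24, adjusted p = 0.716) and -0.74 in males (SE 0.85, interval -2.59 to 1.11, adjusted p = 0.602). These intervals leave room for large changes either way, so they do not show that igf1 stayed the same.

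The gene for the second IGF ligand, igf2a, had 5.84, 11.4 and 11.7 FPKM in male estradiol livers, against 54.2, 60.2 and 13.0 FPKM in male DMSO livers. The male groups did not overlap, with DMSO replicate 3 just above the estradiol libraries. Among females it stood at 4.89, 23.4 and 20.9 FPKM under estradiol, against 22.2, 7.91 and 15.1 FPKM under DMSO, with overlap. The difference was -1.82 in males (SE 0.68, interval -3.30 to -0.34, adjusted p = 0.129) and -0.03 in females (interval -1.51 to 1.45, adjusted p = 0.988).

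The gene for IGF binding protein 2, igfbp2a, fell in males. It had 22.5, 39.8 and 67.1 FPKM in male estradiol livers, against 333, 265.5 and 236 FPKM in male DMSO livers. Among females it stood at 17.2, 57.6 and 57.2 FPKM under estradiol, against 111, 78.3 and 137 FPKM under DMSO. Every estradiol library was below every DMSO library of its sex, and the values of the estradiol groups of both sexes covered much the same range. The difference was -2.78 in males (SE 0.53, interval -3.93 to -1.62, adjusted p = 0.0135) and -1.44 in females (SE 0.53, interval -2.59 to -0.28, adjusted p = 0.161). The call in males ended without male estradiol replicate 1 (adjusted p = 0.0513), without male DMSO replicate 1 (0.0813) or 2 (0.0595), and with quantile normalization (difference -2.44, adjusted p = 0.0535). The interaction was 1.34 (interval -0.29 to 2.97, adjusted p = 0.552).

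The gene for IGF binding protein 1, igfbp1a, had the highest mean level of the 10 under estradiol. In females it had 411, 208 and 513 FPKM in the estradiol livers, against 37.8, 46.4 and 40.6 FPKM in the DMSO livers. In males it had 1.93, 653 and 78.0 FPKM under estradiol, against 85.5, 45.9 and 35.1 FPKM under DMSO. The female groups were far apart, whereas the male estradiol libraries ranged from far below to far above all male DMSO libraries. The difference was 3.06 in females (SE 1.38, interval 0.05 to 6.07, adjusted p = 0.254) and 0.02 in males (SE 1.38, interval -2.99 to 3.02, adjusted p = 0.994). The SE is the same in both sexes because 1 fit over all groups shares the spread, which is widest in male estradiol. In females igfbp1a passed when only the female groups were fitted (adjusted p = 0.0240), where 4.21% of all genes passed, and without male estradiol replicate 1 (0.0317), where 5.46% did. In males the difference was -1.79 without male estradiol replicate 2 (adjusted p = 0.215). Replicates 1 and 3 of both estradiol groups, all rich in oocyte transcripts, were also left out together. The igfbp1a difference was then 2.30 in females and 3.63 in males. That fit left 1 library, replicate 2, in each estradiol group. In males this was the library with the most igfbp1a, 653 FPKM, so the spread within male estradiol does not enter. Male estradiol replicate 1, the lowest for igfbp1a, held 3107 FPKM of oocyte transcripts, and replicate 2, the highest, held 45.6 FPKM. Female estradiol did not share this order. There replicate 2, the lowest for igfbp1a at 208 FPKM, held 0.509 FPKM of oocyte transcripts, and replicate 1, at 411 FPKM, held 3642 FPKM. The part of the oocyte transcripts in this was not tested.

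**Figure D2:**
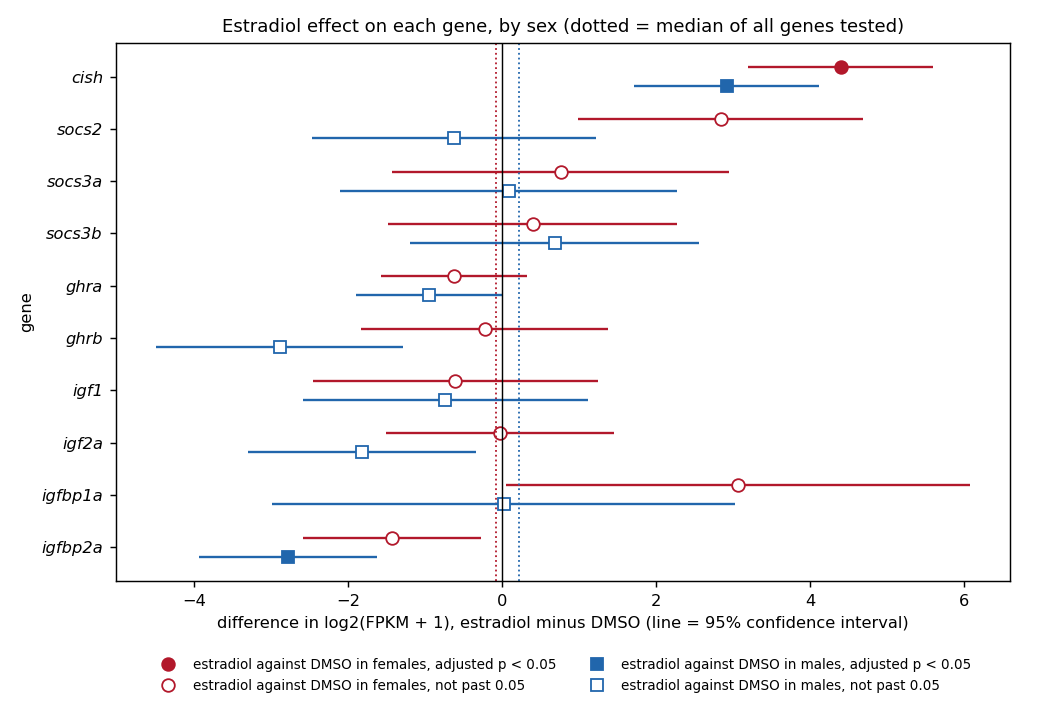
Difference in log2(FPKM + 1), estradiol minus DMSO, for each gene in females (red circles) and males (blue squares), with 95% confidence intervals from the fit over all 12 libraries. Filled markers passed an adjusted p of 0.05, which were cish in both sexes and igfbp2a in males. Dotted lines give the median difference of all 9190 genes tested, -0.08 in females and 0.21 in males.

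As a group, 1 of the 10 genes rose (cish) and 0 fell in females, while 1 rose (cish) and 1 fell (igfbp2a) in males. These counts and those that follow include cish, whose rise was known when the list was put together. They therefore do not show that the list changed more than other genes. Of all genes tested, 0.490% rose and 2.24% fell in females, and 0.881% rose and 2.91% fell in males. At an unadjusted p under 0.05 there were 4 of the 10 genes in females and 5 in males, beside 19% of all genes in females and 26.9% in males. The estradiol and DMSO libraries did not overlap for 4 of the 10 genes in females (cish, socs2, igfbp1a and igfbp2a) and for 4 in males (cish, ghrb, igf2a and igfbp2a). Among all genes tested 28.8% did not overlap in females and 30.0% in males, so these shares are not far above the background. The median difference of the 10 genes was 0.19 in females and -0.68 in males, beside -0.08 in females and 0.21 in males for all genes tested. Another scaling shifted the all-gene median in males to -0.05 with quantile normalization and to 0.06 with median-of-ratios scaling, and cish kept its call in both sexes under both.

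The order of the levels within a group differed between estradiol and DMSO livers. In both DMSO groups igfbp2a stood first, with 109 ± 29.6 FPKM in females and 278 ± 49.4 FPKM in males (mean ± SD, n = 3), and did not overlap igfbp1a, which stood next with 41.6 ± 4.36 FPKM in females and 55.5 ± 26.5 FPKM in males. In female estradiol igfbp1a stood first with 377 ± 155 FPKM, without overlap with igfbp2a at 44.0 ± 23.2 FPKM, and cish stood at place 3 with 43.6 ± 11.1 FPKM, overlapping igfbp2a. In female DMSO cish stood at place 9 of 10 with 1.17 ± 0.757 FPKM and in male DMSO last with 0.799 ± 0.246 FPKM. In male estradiol cish was at place 4 with 16.2 ± 14.2 FPKM, and each gene overlapped its neighbour in the order.

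The igfbp1a level divided by the igfbp2a level of the same library does not depend on scaling between libraries. The ratio was 23.97, 3.62 and 8.96 in female estradiol livers, against 0.341, 0.592 and 0.296 in female DMSO livers. It was 0.0859, 16.4 and 1.16 in male estradiol livers, against 0.257, 0.173 and 0.148 in male DMSO livers. All DMSO libraries had less igfbp1a than igfbp2a, and 5 of the 6 estradiol libraries had more. The exception was male estradiol replicate 1. This ratio was chosen after the values were seen, and no test is given for it.

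**Figure D3:**
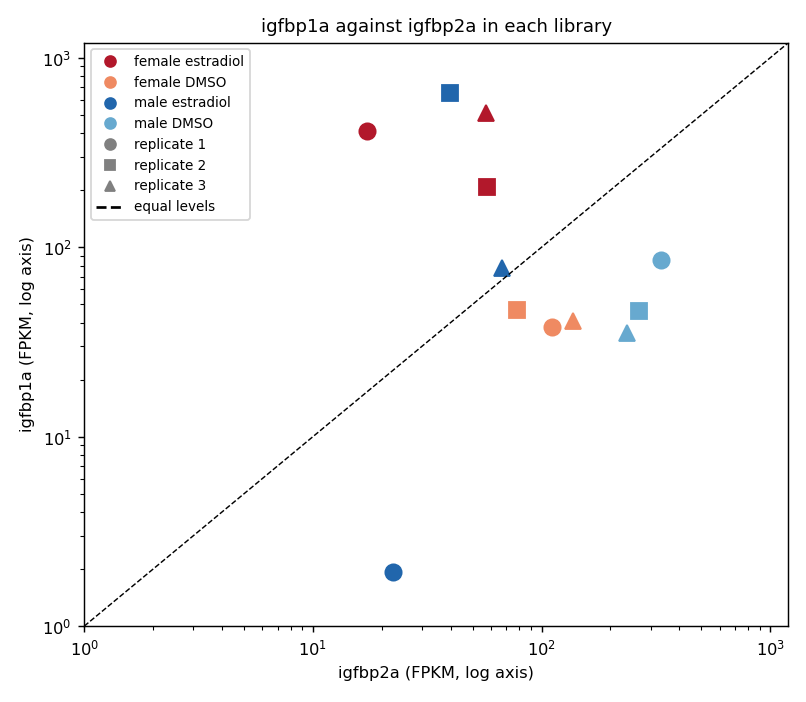
Level of igfbp1a (vertical, FPKM, log axis) against that of igfbp2a (horizontal, FPKM, log axis) in each of the 12 libraries, coloured by group, with the dashed line at equal levels. The 6 DMSO libraries lie below the line, and 5 of the 6 estradiol libraries lie above it.

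Females and males were also compared directly, and none of the 10 genes passed the test. Under DMSO 0 of 10 passed by limma beside 0.555% of all genes, and 2 had an unadjusted p under 0.05, beside 11.5% of all genes. The female and male DMSO libraries did not overlap for these 2 genes, nor for 30.8% of all genes. They were ghra, with 1.25, 1.63 and 2.02 FPKM in females against 4.17, 4.02 and 4.74 FPKM in males (difference -1.02, SE 0.44, adjusted p = 0.392), and igfbp2a, with 78.3 to 137 FPKM in females against 236 to 333 FPKM in males (difference -1.37, SE 0.53, adjusted p = 0.334). Both passed when only the DMSO libraries were fitted (adjusted p = 0.0246 for ghra and 0.0191 for igfbp2a), where the spread of the estradiol libraries no longer enters and 12.7% of all genes passed. Under estradiol 0 of 10 passed, 2 had an unadjusted p under 0.05 (cish and socs2), beside 11.1% of all genes, and 0 had groups without overlap. Of all genes tested under estradiol 0.109% passed and 12.3% did not overlap.

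The interaction, the estradiol effect in females minus that in males, passed for 0 of the 10 genes by limma, beside 0.261% of all genes. At an unadjusted p under 0.05 there were 2 (socs2 and ghrb), beside 10.7% of all genes. It was above 0 for 9 of the 10 genes, with a median of 1.41, and the exception was socs3b at -0.28. Among all genes tested 35.6% were above 0, with a median of -0.28, which was 0.05 with quantile normalization. The interactions had standard errors of 0.62 to 1.95. Without the oocyte-rich estradiol libraries 4 of the 10 interactions were above 0 (socs2, ghrb, igf2a and igfbp2a). Their median over the 10 was -0.17, beside -0.45 for all genes tested in that fit. There cish, socs3a, ghra, igf1 and igfbp1a turned below 0, at -0.27, -3.12, -0.07, -0.91 and -1.33. That fit leaves 1 library in each estradiol group, replicate 2 of each sex. Over all settings tried, that fit included, the sign changed in 7 for igf1, 6 for socs3b, 3 for socs3a and 2 for ghra. It changed in 1 each for cish and igfbp1a. The socs3b interaction was 0.28 with quantile normalization and 0.04 with median-of-ratios scaling. All 10 interactions were above 0 under both scalings, with medians of 1.66 and 1.72. For all genes tested the medians were 0.05 and -0.03. What turned these signs was not tested.

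A wider list of 87 genes of the pathway was drawn up, of which 68 were in the table and 40 passed the filter on low values. In females 0 of the 40 rose and 1 fell, and in males 0 rose and 3 fell, with median differences of -0.24 in females and 0.02 in males. At an unadjusted p under 0.05 there were 8 of the 40 in females, beside 19% of all genes, and 7 in males, beside 26.9%. Of all genes tested 2.24% fell in females and 2.91% in males. The genes for pituitary hormones, gh1 (growth hormone), prl (prolactin), smtla and smtlb (somatolactins), did not reach 1 FPKM in any library. The IGF receptor genes igf1ra and igf1rb were below the filter on low values, and of the 3 IGF and insulin receptor genes and 3 cytokine receptor genes tested, 0 rose and 0 fell in either sex by limma, with 1 at an unadjusted p under 0.05 in males and 0 in females. Among 8 JAK and STAT genes tested, 0 rose and 0 fell in either sex by limma, with 1 at an unadjusted p under 0.05 in females (stat2) and 0 in males. The kinase gene jak2b had 2.86 to 4.13 FPKM in female estradiol and 3.80 to 4.99 FPKM in male estradiol, against 2.46 to 5.29 FPKM in female DMSO and 3.43 to 5.64 FPKM in male DMSO. One STAT5 gene, stat5.1, had 0.359 to 2.19 FPKM in female estradiol and 1.06 to 6.49 FPKM in male estradiol. It had 1.91 to 2.62 FPKM in female DMSO and 3.60 to 7.52 FPKM in male DMSO. Another STAT5 gene, stat5.2, had 0.447 to 0.913 FPKM in female estradiol and 0.613 to 1.78 FPKM in male estradiol. Under DMSO stat5.2 had 0.456 to 0.629 FPKM in females and 0.565 to 1.23 FPKM in males. All 4 groups overlapped for jak2b. Its paralog jak2a had 2.40 to 4.07 FPKM in female estradiol, against 5.06 to 6.87 FPKM in female DMSO, with no overlap. That difference was -0.83 and did not pass (limma adjusted p = 0.387). The male groups of jak2a overlapped, with a difference of 0.004 (adjusted p = 0.996). Of 5 other SOCS genes tested 0 rose and 0 fell in either sex by limma, with 0 at an unadjusted p under 0.05 in females and 1 in males (socs9). The cish paralog cishb had 0.396, 4.42 and 12.4 FPKM in female estradiol, against 1.38, 1.70 and 1.40 FPKM in female DMSO (difference 0.91, SE 0.68, adjusted p = 0.485). In males cishb had 1.02, 5.33 and 0.988 FPKM under estradiol, against 1.27, 1.15 and 1.17 FPKM under DMSO (difference 0.42, SE 0.68, adjusted p = 0.725).

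The calls lay among the 6 genes tested for IGF binding and release and the 12 for adaptors and phosphatases. The paralog igfbp2b fell in males, as igfbp2a did, with 4.22, 1.96 and 5.67 FPKM under estradiol, against 46.4, 22.2 and 25.0 FPKM under DMSO (difference -2.71, SE 0.68, adjusted p = 0.0487). In females igfbp2b had 0, 5.13 and 5.46 FPKM under estradiol, against 18.4, 6.99 and 16.1 FPKM under DMSO (difference -2.02, adjusted p = 0.128). Both sexes had every estradiol library below every DMSO library. The male call of igfbp2b held when male estradiol replicate 2 or female estradiol replicate 1 or 2 was left out, and ended without any 1 of the other 9 libraries (adjusted p 0.0522 to 0.198). It held in 5 of 9 other settings. igfbp5a, another binding protein gene, also passed the test in males, with 0.232, 0.146 and 0.383 FPKM under estradiol, against 5.10, 3.64 and 1.08 FPKM under DMSO (difference -1.64, SE 0.38, adjusted p = 0.0360). It reached 1 FPKM in 0 of 6 estradiol and 4 of 6 DMSO libraries, so it entered the test only through the DMSO groups, where it is high. Its call held without male estradiol replicate 2, female estradiol replicate 1 or 2, or male DMSO replicate 3, but ended without any 1 of the other 8 libraries (0.0507 to 0.170), and held in 3 of 8 other settings. In females igfbp5a had 0.0109, 0.411 and 0.414 FPKM under estradiol, against 1.31, 0.561 and 0.876 FPKM under DMSO (difference -0.58, adjusted p = 0.421). For both binding protein genes the alternatives in males gave differences of the same sign, from -3.37 to -2.37 for igfbp2b and from -3.06 to -1.31 for igfbp5a.

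ptpn11b, a gene for the phosphatase SHP2 that acts downstream of growth factor receptors, fell in both sexes. The female livers had 0, 0.873 and 1.24 FPKM under estradiol, against 5.37, 4.17 and 16.8 FPKM under DMSO (difference -2.38, SE 0.50, adjusted p = 0.0320). The male livers had 1.59, 2.40 and 0.690 FPKM under estradiol, against 14.5, 10.1 and 15.1 FPKM under DMSO (difference -2.51, SE 0.50, adjusted p = 0.0168). No estradiol library reached the lowest DMSO library. Of other settings, 5 of 9 kept the call in females and 7 of 9 in males. The call in females ended without any 1 of the 3 female estradiol, the 3 male DMSO or female DMSO replicates 1 and 3 (adjusted p 0.0510 to 0.0823). In males it ended without male estradiol replicate 1 or 3 or any 1 of the male DMSO libraries (0.0507 to 0.0895). Its paralog ptpn11a had 1.05, 3.77 and 3.14 FPKM in female estradiol and 5.88, 9.97 and 4.61 FPKM in male estradiol, against 5.48, 3.59 and 7.11 FPKM in female DMSO and 7.67, 6.41 and 6.81 FPKM in male DMSO. It did not pass in either sex (adjusted p = 0.279 in females and 0.915 in males).

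The igfbp1a paralog igfbp1b gave the same picture as igfbp1a in females and did not pass. It had 606, 121 and 132 FPKM in female estradiol, against 11.2, 35.6 and 8.08 FPKM in female DMSO (difference 3.75, SE 1.24, adjusted p = 0.124). Among males it stood at 0.528, 87.3 and 31.9 FPKM under estradiol, against 12.8, 9.29 and 2.56 FPKM under DMSO (difference 1.04, adjusted p = 0.618). In male estradiol replicate 1 igfbp1a and igfbp1b both stood below the male DMSO libraries, and in replicate 2 both stood above them. Other binding protein genes did not pass. igfbp3, which encodes the main IGF carrier of mammalian blood, had 4.57, 6.86 and 4.23 FPKM in female estradiol, against 1.27, 1.27 and 1.68 FPKM in female DMSO (difference 1.35, SE 0.44, adjusted p = 0.121), and in males its difference was 1.11 (adjusted p = 0.147). igfbp7 had 12.2, 10.45 and 7.81 FPKM in female estradiol and 4.44, 11.5 and 16.3 FPKM in male estradiol, against 16.8, 13.7 and 16.95 FPKM in female DMSO and 20.03, 29.95 and 20.2 FPKM in male DMSO (difference -0.60 in females, adjusted p = 0.458, and -1.18 in males, adjusted p = 0.120).

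For igf2b, the igf2a paralog, it was the female groups that did not overlap. Among females it stood at 0.676, 2.54 and 4.61 FPKM under estradiol, against 9.84, 8.41 and 28.8 FPKM under DMSO without overlap (difference -2.17, SE 0.66, adjusted p = 0.102). In males igf2b had 4.82, 22.4 and 3.84 FPKM under estradiol, against 10.9, 7.41 and 6.97 FPKM under DMSO (difference -0.09, SE 0.66, adjusted p = 0.940). The interaction of igf2b was -2.08 (SE 0.93, adjusted p = 0.454).

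**Figure D4:**
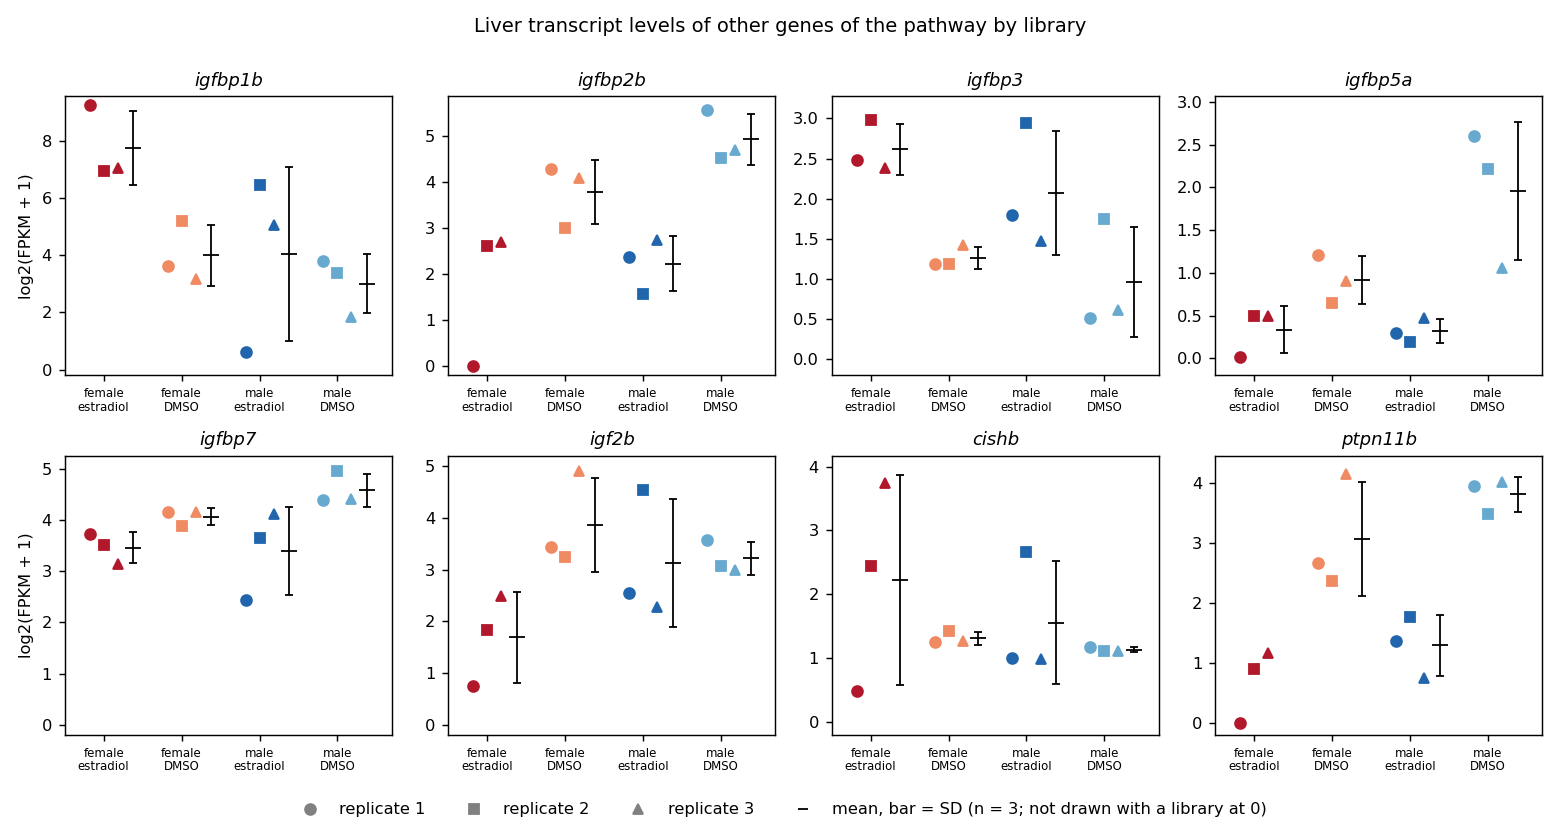
Level of 8 other genes of the pathway as log2(FPKM + 1) in every library, with the groups female estradiol, female DMSO, male estradiol and male DMSO from left to right. Shapes give the replicate, and ticks and bars give the mean and SD of 3 libraries where none is listed at 0. The estradiol points of ptpn11b and igfbp2b lie below the DMSO points of their sex, and those of igfbp1b lie above them in females.

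Among the 5 genes whose level followed cish most closely across the 12 libraries were terfa, fam83d, tpd52 and gls2b, with Pearson r of 0.92, 0.90, 0.90 and 0.89. The 12 points of each correlation share the split into estradiol and DMSO groups, and no test is attached. gls2b, which encodes a glutaminase, had 20.8, 8.88 and 6.56 FPKM in female estradiol and 0.366, 19.7 and 2.28 FPKM in male estradiol, against 0.166 to 1.15 FPKM in female DMSO and 0.0630 to 0.240 FPKM in male DMSO. terfa, a gene for a telomere-binding protein, had a narrower span, with 8.05 to 17.8 FPKM in female estradiol and 4.34 to 6.90 FPKM in male estradiol, against 2.21 to 4.29 FPKM in female DMSO and 2.56 to 3.56 FPKM in male DMSO.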

How the data were processed

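RNA from 12 liver libraries was sequenced after NEBNext Directional library preparation, per the labels' protocols. The submitters' processing notes name cutadapt, TopHat2 2.0.11, Cufflinks 2.2.1 and the build danRer7. The annotation is not given in the sources used here. The authors deposited 1 value per gene symbol and library, taken to be FPKM from Cufflinks and the values, because the header names no unit. Depth is unknown, so no counting interval is given. No genome or sequence table was used. The 9190 of 14581 genes that reached 1 FPKM in 3 or more of the 12 libraries were tested. limma 3.58.1 in R 4.3.3 fitted 4 group means to log2(FPKM + 1) over all libraries, with an intensity trend and Benjamini-Hochberg adjustment over all genes tested, threshold 0.05. The fit was tested on simulated data, and other pseudocounts, filters, scalings, sample sets and a replicate term were tried. Python 3.11.15, pandas 2.3.3, numpy 2.4.6 and matplotlib 3.10.9 made tables and figures.

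Members, gene lists and tests were chosen with earlier results of these data known. Named were all 10 members, pathway genes past the threshold, paralogs of members, and the 5 genes most correlated with cish, clone names left out, of which 1 is not reported here. Of 87 pathway symbols 68 matched, by symbol or RefSeq synonym. igfbp3, igfbp7, igf1ra, igf1rb, jak2a, jak2b, stat5.1, stat5.2, stat2, socs9, ptpn11a and the pituitary hormone genes were named after their values were seen. No 2 libraries held identical values.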

Additional observations from a re-analysis of the deposited data

How the results depend on the processing

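With 3 libraries a group and unknown depth, calls near the threshold turned on single libraries. In males 2 of the 10 genes passed. The count ran from 0 to 4 when 1 library was left out. It was 0 without male DMSO replicate 1 or 2, where 1.14% and 1.38% of all genes passed. It was 1 without male DMSO replicate 3 or male estradiol replicate 1, where 1.88% and 2.03% of all genes passed. It was 4 without male estradiol replicate 2, where 24.5% of all genes passed, against 3.79% in the main fit. Leaving out replicates 1 and 3 of both estradiol groups, which are rich in oocyte transcripts, gave 5, where the lone library left in each estradiol group is assumed to vary like the other groups. Beside cish and igfbp2a, the genes counted there were ghrb, igfbp1a and socs3b (differences of -3.78, 3.63 and 2.56). In females 1 passed, and the count ran from 1 to 2 without 1 library and was 2 with only the female groups fitted. The cish call in females did not hold without the 2 DMSO libraries rich in intestine transcripts. That fit left 1 female DMSO library. Between DMSO females and males, 0 passed, against 2 with only the DMSO groups fitted and 2 without the oocyte-rich libraries, fits in which 972 and 917 of all genes passed, against 51. Between estradiol females and males and for the interaction the count was 0 in every alternative run. A replicate block, with the replicate number as a term, left the count at 2 in males and 1 in females. Deviations of same-numbered libraries correlated at -0.43 to 0.03 between estradiol and DMSO. Between DMSO females and males they correlated at 0.17, 0.05 and 0.13 for replicates 1, 2 and 3. Between estradiol females and males the values were 0.49, 0.57 and 0.01. Whether the numbers link libraries of the 2 sexes within a treatment is not known. Of 1034 recomputed differences of single genes, 0 that passed the threshold changed sign, and 74 that passed under neither setting did. Over all genes, 251 passed in females, 13 without the intestine-rich libraries, 39 to 711 without 1 library and 420 without the oocyte-rich ones. In males 348 passed, 104 to 2220 without 1 library and 693 without the oocyte-rich ones. The cause of these shifts was not tested.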

Other observations

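Male estradiol replicate 2 stood apart from the other 11 libraries in a gene of the wider list that was too rarely detected to be tested, and which was singled out after its values were seen. lepa, a gene for leptin, was at 63.0 FPKM in that library and listed at 0 in all others, and lepb was at 2.36 FPKM there and listed at 0 in all others. The leptin receptor gene lepr had 0.670, 10.3 and 1.74 FPKM in male estradiol replicates 1 to 3, against 3.84, 0.800 and 2.74 FPKM in male DMSO. stat3, a transcription factor gene of leptin and interleukin-6 receptors, had 1.81, 16.1 and 0.799 FPKM in male estradiol, against 8.75, 7.57 and 5.42 FPKM in male DMSO. The same library was the highest of the 12 for socs3a, socs3b and igfbp1a. It was also the highest for the hepatocyte markers fga, fgb and fgg and the kinase genes jak1 and jak2a. Its high values were thus not particular to the leptin and SOCS3 genes.

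socs1a and pias4b, inhibitors of STAT signalling that were also singled out after their values were seen, were high in the libraries rich in oocyte transcripts. socs1a had 30.4, 0.578 and 4.58 FPKM in female estradiol and 17.3, 1.34 and 6.57 FPKM in male estradiol, against 0.727 to 3.59 FPKM in female DMSO and 0.702 to 1.82 FPKM in male DMSO. pias4b had 27.7, 0.124 and 4.22 FPKM in female estradiol and 22.04, 0.0856 and 7.64 FPKM in male estradiol, against 0 to 1.66 FPKM in female DMSO and 0 to 0.743 FPKM in male DMSO. The summed level of the 14 oocyte genes was 3642, 0.509 and 641 FPKM in female estradiol and 3107, 45.6 and 1477 FPKM in male estradiol, against 8.99 to 213 FPKM in female DMSO and 0.0496 to 2.14 FPKM in male DMSO. Neither gene passed the test in either sex (adjusted p of 0.236 to 0.471).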
